A study of Mus musculus with 207 samples.

Results

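The constitutive proteasome subunits were 35 genes of the 10214 for which the array gave a tested probe set with 1 gene symbol. The symbols that name subunits of the core (Psma, Psmb) and of the cap (Psmc, Psmd) covered 36 genes once the interferon-induced Psmb8, Psmb9 and Psmb10 were set aside. Each gene was represented by its brightest probe set (a group of oligonucleotides on the array read together as 1 signal), and was kept where the 67th percentile of its signal over all mice was at least 100 MAS5 units. Psmb11, the core subunit of the thymus, did not reach this limit at 25 units. The members next above it were Psma8 at 186.7 units and Psmd9 at 870.8 units.

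The signals came from cultured bone marrow macrophages of 207 F2 mice, of which 93 were female and the rest male. Each mouse had its own Affymetrix 430v2 array. All mice lacked apoE and came from an intercross of apoE-deficient AKR and DBA/2 mice bred in both directions, and all were 16 weeks old. The marrow cells had been kept for 2 weeks in DMEM, to which serum (10%) and, as a source of the macrophage growth factor, medium conditioned by L-cells (20%) had been added. The labels name no treatment and no mouse that is wild type at the apoE locus, so that the comparisons were between the sexes and among mice within a sex. Each sample name held a number, the lowest being 33 among females and 9 among males. The labels do not say what it stands for, nor that it means the same in both sexes.

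The proteasome is the barrel-shaped protease that degrades proteins tagged with ubiquitin. Its 20S core is a stack of rings, in which alpha subunits gate the entrance and beta subunits, among them the catalytic Psmb5, Psmb6 and Psmb7, cut the substrate. The 19S cap has a base, where a ring of ATPases unfolds the substrate, and a lid, which takes off its ubiquitin. Growing, dividing and antigen-presenting cells make much use of it, and in macrophages exposed to interferon the catalytic subunits are partly replaced by Psmb8, Psmb9 and Psmb10. When proteasome activity falls, many subunit genes are transcribed together through NRF1, the product of Nfe2l1, which binds antioxidant response elements.

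The sequences before the start of 4 members are shown because the subunits differ in the results that follow. Psmb5 and Psmb6 encode the chymotrypsin-like and the caspase-like catalytic subunit, Psmb3 had the largest difference between the sexes, and Psmd14 was lower in mice with higher numbers in both sexes. Each sequence is the 250 bases before the RefSeq transcription start in build GRCm38.p6, at chr14:54617996-54618245 on the minus strand for Psmb5, chr11:70525107-70525356 on the plus strand for Psmb6, chr11:97703184-97703433 on the plus strand for Psmb3 and chr2:61711444-61711693 on the plus strand for Psmd14. Capitals mark matches on either strand to the core of the antioxidant response element (TGACNNNGC), the CCAAT box (CCAAT), the GC box (GGGCGG) and the core bound by ETS factors (CGGAAG).
Psmb5: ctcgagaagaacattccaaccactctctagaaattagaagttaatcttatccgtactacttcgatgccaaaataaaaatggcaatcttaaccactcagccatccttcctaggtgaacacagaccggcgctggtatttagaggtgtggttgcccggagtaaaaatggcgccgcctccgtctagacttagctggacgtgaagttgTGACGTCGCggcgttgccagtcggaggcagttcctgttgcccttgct
Psmb6: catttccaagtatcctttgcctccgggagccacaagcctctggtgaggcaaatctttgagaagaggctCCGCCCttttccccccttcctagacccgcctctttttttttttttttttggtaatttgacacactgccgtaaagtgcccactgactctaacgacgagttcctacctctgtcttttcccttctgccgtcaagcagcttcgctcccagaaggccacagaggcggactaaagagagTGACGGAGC
Psmb3: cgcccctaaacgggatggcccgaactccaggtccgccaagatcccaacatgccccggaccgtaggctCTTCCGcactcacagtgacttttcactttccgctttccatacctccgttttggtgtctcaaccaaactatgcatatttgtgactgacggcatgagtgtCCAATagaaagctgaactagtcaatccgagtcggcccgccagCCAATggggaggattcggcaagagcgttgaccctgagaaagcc
Psmd14: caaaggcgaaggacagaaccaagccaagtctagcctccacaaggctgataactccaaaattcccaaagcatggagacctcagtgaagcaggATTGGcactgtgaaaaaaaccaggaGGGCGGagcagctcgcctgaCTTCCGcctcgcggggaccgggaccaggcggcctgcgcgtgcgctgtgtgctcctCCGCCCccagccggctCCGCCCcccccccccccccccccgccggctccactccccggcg
The antioxidant response element core stood 47 bases before the start in Psmb5 (TGACGTCGC) and 9 bases before it in Psmb6 (TGACGGAGC). Psmb3 held an ETS core and a pair of CCAAT boxes, and Psmd14 held 3 GC boxes, an ETS core and a CCAAT box on the other strand.

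RefSeq windows of 300 bases, 250 before and 50 after a start, were matched by symbol for 28 of the 35 members (not matched: Psma8, Psmb1, Psmb2, Psmb7, Psmc3, Psmd3 and Psmd7). The ETS core was found in a window of 17 of the 28 (60.7%), against 18.8% of the 27025 genes in the table. The GC box was found in 18 (64.3%), against 38.2%. CCAAT was found in 11 (39.3%), against 41.1% of all genes, and the antioxidant response element core in 5 (17.9%), against 14.0%. The holders of the last were Psmb5, Psmb6, Psmc6, Psmd9 and Psmd12. Matches may overlap each other, and they are matches of letters, not measured binding sites.

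The sex labels were checked first: Xist was higher in each of the 93 females than in any male, and Eif2s3y was higher in every male than in any female. All 7 macrophage markers reached the signal minimum, with summed signals of 93097 to 167308 units in females and 106743 to 163330 in males. The 24 males numbered 55 to 78 stood apart. Their median signal over the probe sets of an array was 95.5 ± 9.55 units (mean ± SD), against 64.2 ± 5.01 in the other 90 males and 63.3 ± 8.24 in the females. The ratio of the 3′ to the 5′ control probe sets of Gapdh, a measure of how complete the labelled RNA was, was 0.917 ± 0.0652 in females and 0.791 ± 0.0302 in males, and that of beta-actin 1.27 ± 0.0791 and 1.23 ± 0.0632. Nothing in the labels says in which order or batch the arrays were run.

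A further 11 arrays stood apart in the members themselves, those of 7 females whose numbers follow each other from 99 and of the 4 males numbered 93 to 96. In Psmc3, an ATPase of the base, these females had 2026 to 2670 units against 2896 to 5191 in the other 86, and the males 2143 to 2704 against 3131 to 5913 in the other 110. In Psmd5, an assembly factor, they had 2891 to 3400 against 1542 to 2554 units in females and 2980 to 3528 against 1358 to 2886 in males, with no overlap in either gene. Psmc5 was low as well (1336 to 2210 units in these females and 1192 to 1689 in these males), and Psmb1 was high (7248 to 10036 and 8801 to 11318). Over all tested probe sets, the correlation of these arrays with the median of their sex was 0.92 to 0.94 in females and 0.91 to 0.95 in males, against medians of 0.97 for the other females and 0.97 for the other males. The ranges overlapped, since the other females went down to 0.93 and the other males to 0.92. Of the others, 1 female and 10 males lay below the highest of these arrays of their sex. The 11 arrays were noticed after the results were seen. The main counts, the median correlations and some single values are given with and without them.

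Signals were strong throughout the complex apart from Psma8, and most subunits varied little between mice. Over the 35 members, the median coefficient of variation (SD over mean) was 14.8% in females and 14.3% in males, against 21.8% and 22.9% over the brightest probe sets of all 10214 genes. These were not matched for signal. The median signal of a member was 5066 units in females and 4555 in males, whereas all genes include those at the minimum of 100 units. The part of signal strength in this difference was not tested. In the 8 alpha subunits the median signal ran from 165.7 (Psma8) to 12021 units (Psma6) in females and from 167 to 11912 in males. In the 7 beta subunits it ran from 3066 to 8334 in females and from 3454 to 9637 in males. The 6 ATPases of the base (Psmc1 to Psmc6) spanned 3175 to 5847 in females and 2700 to 6246 in males, and the other base subunits (Psmd1 and Psmd2, the scaffolds that receive shuttle proteins, and Psmd4, a ubiquitin receptor) 4406 to 6560 and 4140 to 6337. The 8 lid subunits spanned 1422 (Psmd3) to 10283 units in females and 1446 to 9764 in males. Psmd5, Psmd9 and Psmd10, chaperones that assemble the base, had medians of 813.2 to 3621 in females and 839.1 to 3728 in males. Probe sets differ in how well they bind, so that these spans describe the array and are not amounts of RNA.

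Psma8, the alpha subunit of germ cells, was the weak one. It had 55.6 units in the lowest female, a median of 165.7 and 244.6 in the highest, and 53.2, 167 and 333.2 units in males. The ranges overlapped near the signal minimum, and males reached higher.

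The catalytic subunits did not vary alike. Psmb5 was steady, with a coefficient of variation of 11.9% in females and 14.3% in males, whereas Psmb6 reached 34.6% and 29.2% and Psmb7 60.6% and 52.5%, the 2 largest of all members in each sex. The next largest was Psma8 at 28.1% in females and Psmc4, an ATPase of the base, at 28.6% in males. Psmc4 had a lowest, median and highest signal of 1590, 4040 and 5947 units in females and 898.5, 3769 and 5631 in males. Psmb5 had a lowest, median and highest signal of 4938, 6123 and 8259 units in females and 4064, 5970 and 7749 in males. Psmb6 had 1457, 3811 and 7083 units in females and 1877, 4298 and 7043 in males. Psmb7, the trypsin-like subunit, had 1946, 3341 and 12989 units in females and 2017, 4187 and 11644 in males. The sexes overlapped over nearly the whole range of all 3.

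**Figure D1:**
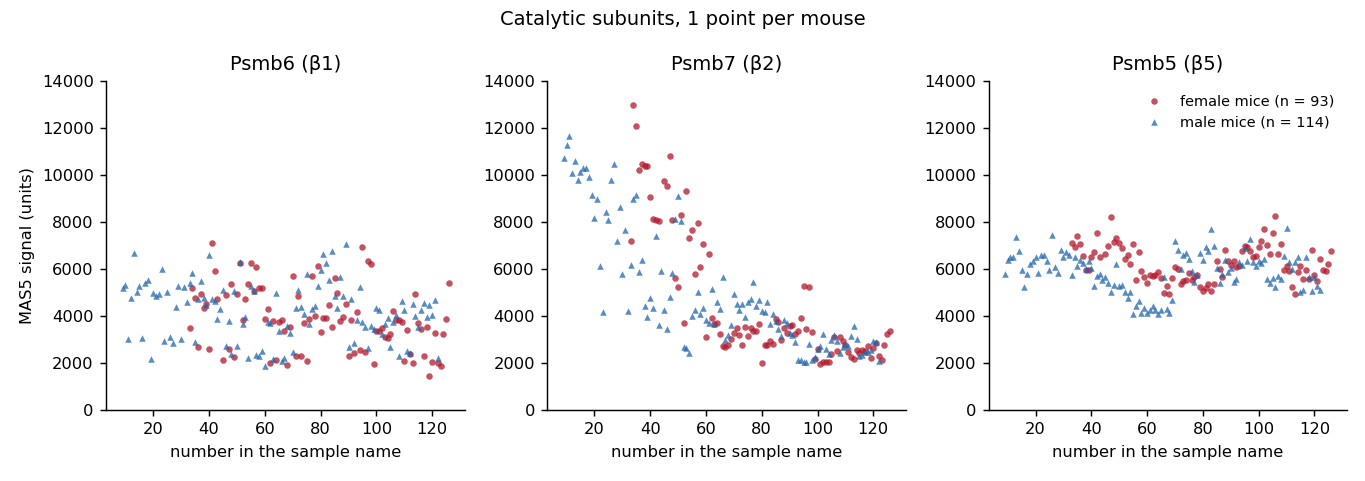
Signal of Psmb6, Psmb7 and Psmb5 in MAS5 units against the number in the sample name, with 1 point per mouse (93 females as circles, the males as triangles). Psmb7 descends from a mean of 9072 units in males numbered 9 to 30 to 2641 units in males numbered above 90, while Psmb5 stays within 4064 to 8259 units.

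The question of the trend was whether the signal of a subunit moved with the number. In females 12 members fell with the number and 0 rose, and in males 8 fell and 4 rose (limma on log2(signal + 1), Bonferroni-adjusted p under 0.05 over 20036 probe sets). Of all tested probe sets, 14.2% fell and 16.4% rose in females, and 16.2% fell and 18.1% rose in males. Over the brightest probe set of each gene, 17.5% fell and 14.7% rose in females, and 17.7% fell and 17.6% rose in males. The shares of members were 34.3% falling and 0% rising in females, and 22.9% and 11.4% in males. Without adjustment, 5 members rose and 19 fell in females at p under 0.05, as did 35.4% and 31.7% of all tested probe sets, and Spearman correlation in place of limma called 0 rising and 13 falling, against 16.5% and 14.4% of all. Without the 11 arrays that stood apart, 0 rose and 13 fell in females (15.4% and 13.5% of all tested probe sets) and 4 rose and 7 fell in males (17.2% and 15.6%). Psmc6 was then added in females (adjusted p = 0.0453) and Psmd14 lost in males (adjusted p = 0.0720). The median slope of the members was -0.018 log2 units per 10 numbers in females and -0.0074 in males, where the brightest probe sets of all genes had -0.003 and -0.00064.

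Psmb7 had the steepest slope of all members in both sexes. The 31 females with the lowest numbers had a median of 8052 units, the next 31 had 3270 and the 31 with the highest numbers 2531, which is 3.18-fold less than the first. In males the medians of the corresponding 38 mice were 8125, 4316 and 2768 units, a 2.94-fold difference. The slope was -0.22 ± 0.0165 log2 units per 10 numbers (SE) in females (limma, Bonferroni-adjusted p = 1.10e-19, n = 93) and -0.18 ± 0.0105 in males (adjusted p = 1.67e-29). Spearman's rho with the number was -0.80 and -0.85.

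The descent of Psmb7 was not an even line. In females, 25 of the 27 mice numbered 33 to 60 lay above 5000 units, against 1 of 30 numbered 61 to 90 and 2 of 36 with higher numbers. Within those runs rho was -0.69, -0.071 and -0.29. Males passed through intermediate levels: 21 of 22 mice numbered 9 to 30 lay above 5000 units, 13 of 30 numbered 31 to 60, 3 of 30 numbered 61 to 90 and 0 of 32 with higher numbers, with rho of -0.74, -0.42, -0.27 and 0.15 within the runs. The sex difference of Psmb7 over all mice did not pass the test (Mann-Whitney, Bonferroni-adjusted p = 1.00).

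The other catalytic subunits had no such slope. Psmb6 had medians of 4699, 3842 and 3341 units over the lowest, middle and highest numbers in females and 4800, 3871 and 3974 in males, with slopes of -0.063 ± 0.0191 and -0.021 ± 0.0127 (adjusted p = 1.00 in each sex). Psmb5 had 6604, 5660 and 6414 units in females and 6235, 5287 and 6016 in males, lowest in the middle of both, with slopes of -0.0089 ± 0.0067 and -0.0033 ± 0.0063 (adjusted p = 1.00 in each). In the 24 males numbered 55 to 78 Psmb5 averaged 5109 ± 1061 units, against 6060 ± 641 in the other 90.

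Of the 14 beta and alpha subunits other than Psmb7, Psmb4 and Psma8 fell in females and Psma5, Psma6 and Psmb3 rose in males. Psmb3, a structural subunit of the beta ring, rose most. Its medians were 6747, 7464 and 8561 units in males (slope 0.052 ± 0.00641, adjusted p = 1.09e-08) and 5316, 5869 and 5912 in females (slope 0.027 ± 0.00628, adjusted p = 0.908). Psma5 ran from 4835 to 11172 units in females (median 7243) and from 5952 to 11936 in males (median 8197). It rose in males from 7614 to 9090 units (slope 0.035 ± 0.00557, adjusted p = 8.50e-05), and its slope in females was of the same size, 0.034 ± 0.00745 (adjusted p = 0.368). Psma8 fell in females from a median of 198 to 132.7 units (slope -0.087 ± 0.0151, adjusted p = 0.00197) with -0.029 ± 0.0123 in males (adjusted p = 1.00). Psmb4 ran from 6322 to 11463 units in females (median 8334) and from 7770 to 12416 in males (median 9637). It fell in females from 8996 to 7764 units (slope -0.038 ± 0.00513, adjusted p = 9.43e-07), and in males its slope was -0.0096 ± 0.00412 (adjusted p = 1.00). The fall in females was not called with the other tested probe set of Psmb4 (slope -0.012 ± 0.0105).

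In the cap, 9 of the 17 subunits of base and lid fell in females and 6 in males, and 0 rose in either sex. Negative slopes, called or not, were found for 16 of the 17 in females and 14 in males. The share over all genes is not given here. The median slope of their brightest probe sets was -0.003 in females and -0.00064 in males. The members that fell in both sexes numbered 7. Besides Psmb7 these were the ATPases Psmc1, Psmc3 and Psmc5 and the lid subunits Psmd8, Psmd12 and Psmd14. Each of the 7 had only 1 tested probe set, so that no second one could be set beside it. The share of all genes that fell in both sexes is not given here. Psmd14 is the enzyme that removes ubiquitin from the substrate, and Psmd8 and Psmd12 are structural subunits of the lid. With all arrays, Psmc5 had the largest slope of the ATPases. Its lowest, median and highest signals were 1336, 3382 and 5159 units in females and 1192, 2700 and 4221 in males. Over the lowest, middle and highest numbers its medians were 3726, 3390 and 2600 units in females (slope -0.077 ± 0.0125, adjusted p = 0.000371) and 3060, 2614 and 2378 in males (-0.046 ± 0.00804, adjusted p = 0.0018). Psmd14 ran from 3809 to 9718 units in females (median 6229) and from 4218 to 11181 in males (median 7374). By number it had 7327, 6117 and 5210 units in females (-0.07 ± 0.0086, adjusted p = 4.05e-08) and 7991, 8206 and 6068 in males (-0.042 ± 0.00792, adjusted p = 0.00999). Psmd8 ran from 5370 to 15339 units in females (median 9198) and from 5539 to 16632 in males (median 9764). By number it had 10396, 8513 and 7603 units in females (-0.06 ± 0.00984, adjusted p = 0.000487) and 12882, 8610 and 9067 in males (-0.068 ± 0.00775, adjusted p = 4.64e-10).

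Of the remaining falling members, Psmc2, Psmd2 and Psmd3 fell in females and Psmd9 in males. Psmd2 had medians of 7252, 6145 and 6349 units in females (slope -0.033 ± 0.00606, adjusted p = 0.00763). Psmd1 had slopes of -0.027 ± 0.00538 in females and -0.03 ± 0.00621 in males that missed the threshold (adjusted p = 0.0501 and 0.0699). Psmd10, also called gankyrin and X-linked, was the assembly factor with the largest slope. Its signals were 2018 to 5219 units in females (median 3621) and 2248 to 6641 in males (median 3728). It rose in males from 3260 to 4038 units (0.039 ± 0.00721, adjusted p = 0.00935), and its medians in females were 3055, 4108 and 3577 (0.047 ± 0.0099, adjusted p = 0.130). Of the core, Psma1, Psma2, Psma3, Psma4, Psma7, Psmb1, Psmb2, Psmb5 and Psmb6 met no trend threshold in either sex on their brightest probe set. Nor did Psmc4, Psmc6, Psmd1, Psmd4, Psmd5, Psmd6, Psmd7, Psmd11 and Psmd13. Another probe set did for Psma7 (0.042), Psmd4 (0.026) and Psmd11 (0.03), which rose in males, and for Psmc4 (-0.032), which fell in females. Weak ones of Psma1 (0.15 in females and 0.087 in males) and Psmd13 (0.14 and 0.12) rose in both sexes.

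**Figure D2:**
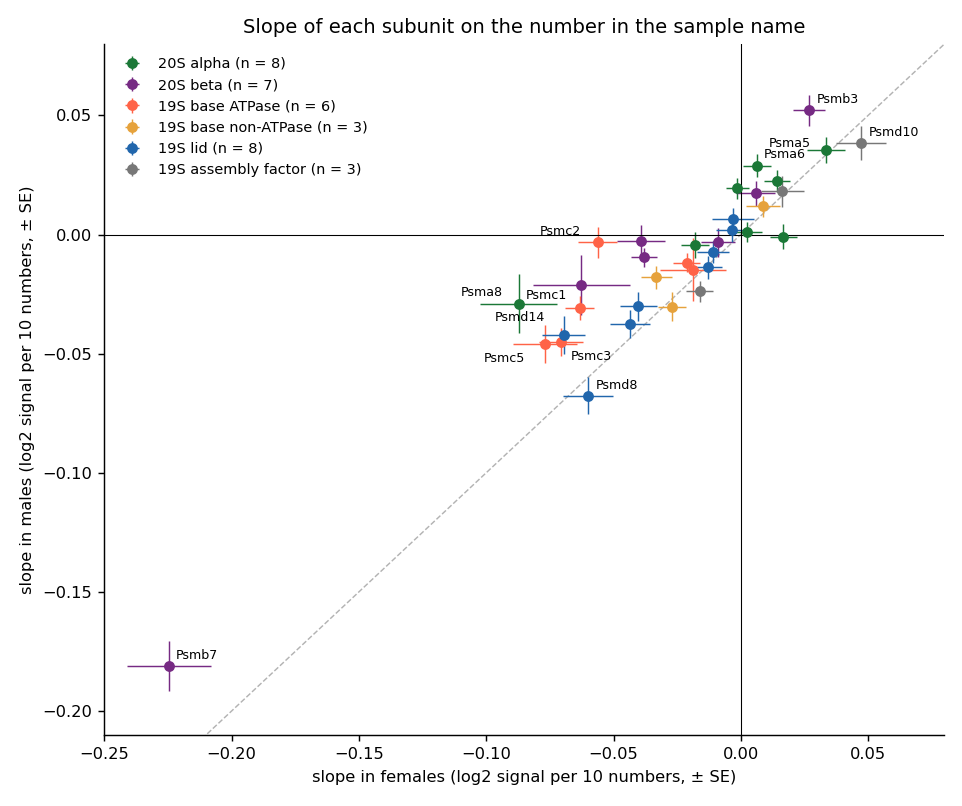
Slope of each of the 35 subunits on the number in the sample name in females (x axis) and in males (y axis), in log2 signal per 10 numbers with SE bars, coloured by class; the dashed line marks equal slopes. Psmb7 lies alone at -0.22 and -0.18, most subunits of the cap lie below 0 on both axes, and Psmb3, Psma5 and Psmd10 lie above.

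The slopes in the 2 sexes came from different mice and ran alike, as they did over all genes. Of the 35 members, 31 had the same sign in both, and the slopes correlated with r = 0.93 across members (0.86 over the 34 without Psmb7, and 0.94 over the brightest probe sets of all genes; genes are not independent replicates). The share of all genes with the same sign in both sexes is not given here. The slope itself was compared between the sexes with an interaction term. It was passed by 1 member, 2.86% of 35, against 0.709% of all tested probe sets and 0.46% of the brightest of each gene. That member was Psmc2, an ATPase of the base. Its medians in females were 6705, 6141 and 5061 units (slope -0.056 ± 0.0075, adjusted p = 7.23e-07) and in males 6110, 7353 and 5976 (-0.0033 ± 0.00636, adjusted p = 1.00). The difference was 0.053 ± 0.01 log2 units per 10 numbers (male minus female, adjusted p = 0.00711). Benjamini-Hochberg adjustment called 7 members and 10.6% of all tested probe sets. Without the 11 arrays that stood apart the difference was 0.048 ± 0.0097 (adjusted p = 0.0279), and Psmc2 was again the 1 member called, against 0.594% of all tested probe sets. With the brightest probe set that carries no s, x or a suffix for each gene, 0 passed the limma test, and the other tested probe set of Psmc2 had slopes of -0.026 ± 0.00659 and -0.00075 ± 0.00558.

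Other measures moved with the number as well. The summed signal of the dividing-cell markers, of which 3 of 4 (Mki67, Top2a and Cdk1) were on the array with 1 symbol and all reached the signal minimum, ran from 854.3 to 11560 units in females (median 2431) and from 972.9 to 11498 in males (median 2384). Against the number its rho was -0.86 for females and -0.77 for males. Psmb7 correlated with this sum at r = 0.89 in females and 0.74 in males, and at 0.63 and 0.20 once a line on the number was taken out of both. Psmd14 had r of 0.80 and 0.39 and Psmc3 of 0.76 and 0.63, while Psmb3 had -0.38 and -0.63 and Psma2 -0.013 and -0.013. With the line taken out, Psmd14 had 0.63 and 0.063 and Psmc3 0.52 and 0.33. Psmb3 then had -0.049 and -0.30, and Psma2 0.055 and 0.012. The median over the members was 0.37 and 0.24 before the line was taken out. Of the 6 neutrophil markers 1 reached the signal minimum; their summed signal had a median of 2735 units in females (382.2 to 18968) and 2075 in males (355.4 to 32270), with rho of 0.61 and 0.67. The osteoclast markers, of which 2 of 3 reached the minimum, had sums of 1425 to 6630 units in females and 1458 to 9985 in males, with rho of 0.29 and 0.43. The stroma markers, all 5 of which reached it, had sums of 295.2 to 71233 units in females and 349.3 to 31807 in males, with rho of -0.0036 and -0.31, and in males the median sum was 10240 units at the lower numbers and 5932 at the higher. Of 4 B cell markers 3 were on the array and 1 reached the minimum (76.1 to 1002 units in females and 51.4 to 1005 in males), with rho of -0.46 and -0.20. The macrophage markers had rho of 0.18 and 0.067, and 0 of the T and NK cell and of the erythroid markers reached the minimum. The part of these in the slopes was not tested, and in whole cultures fewer cells of a type and less RNA per cell cannot be told apart.

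The 3′ to 5′ ratios rose too, with rho of 0.30 for Gapdh and 0.34 for beta-actin in females and 0.61 and 0.41 in males. With both ratios as covariates, 10 members fell and 1 rose in females (11.6% and 14% of all tested probe sets), and 2 fell and 2 rose in males (8.26% and 9.76%). The falling members in males were then Psmb7 and Psmd8, and the rising ones Psmb3 and Psmd10. Without the 24 males numbered 55 to 78, the male counts were 10 falling and 4 rising, against 18.2% and 20.8% of all tested probe sets. Within those 24 mice alone rho was above 0 for most members and ran from -0.70 for Psmd8 to 0.87 for Psma7. Of the other members that fell in both sexes, Psmb7 (0.23), Psmc5 (0.21), Psmd12 (0.42) and Psmd14 (0.53) had positive values there. Psmc1 (-0.46) and Psmc3 (-0.45) had negative ones, and Psmb3 had 0.80.

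The comparison of the sexes gave differences in both directions. Of the 35 members 5 had higher signals in females and 9 had them in males (2-sided Mann-Whitney test, Bonferroni-adjusted p under 0.05), which is 14.3% and 25.7% of them. The share of all 20036 tested probe sets was 16.6% for higher signals in females and 16.6% for males, and of the brightest probe sets of all genes 19.5% and 11%. The ratio of female to male mean signals had a median of 0.93 over members, and of 1.01 over the brightest probe sets. Higher in males were the alpha subunits Psma2, Psma5 and Psma7, the beta subunits Psmb3 and Psmb4, the ATPase Psmc1 and the lid subunits Psmd6, Psmd7 and Psmd14. Higher in females were the alpha subunit Psma4, the ATPases Psmc5 and Psmc6, Psmd1 of the base and Psmd11 of the lid. Another probe set of Psmd11 was also called, with a female mean 1.33-fold higher (Mann-Whitney, adjusted p = 2.17e-22). Its remaining tested probe sets, with ratios of female to male means of 1.08, 1.01 and 0.95, were not.

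The differences called were of 1.10- to 1.38-fold, and the sexes overlapped in each. Psmb3 had the smallest p. Its lowest, median and highest signals were 4208, 5692 and 7630 units in females and 4762, 7474 and 12432 in males. The male mean was 1.38-fold higher (7891 ± 1602 against 5718 ± 693, SD), the male had more in 92.3% of all pairs of a male and a female, and the adjusted p was 2.74e-21. Psma7, the alpha subunit that Psma8 replaces in germ cells, had 4148, 5066 and 6361 units in females and 4962, 6113 and 8693 in males. Its male mean was 1.24-fold higher, with the male higher in 92.1% of pairs (adjusted p = 4.16e-21). On these probe sets most males lay above most females for both genes. The other tested probe set of Psma7 had a male mean 1.12-fold higher, which did not pass (Mann-Whitney, adjusted p = 0.264). It averaged 4293 units in females and 4822 in males, and its r with the brightest was 0.71 and 0.72.

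In the lid, Psmd7, the partner of Psmd14, had 1794, 2398 and 3077 units in females and 2177, 2819 and 3775 in males. Its male mean was 1.16-fold higher (adjusted p = 1.95e-12). Psmc6 ran the other way among the ATPases, with 3960, 5222 and 6774 units in females and 3698, 4500 and 5529 in males. The female mean was 1.16-fold higher, and the female had more in 85.1% of pairs (adjusted p = 7.76e-14). The other tested probe sets of Psmc6 did not give this difference, with means of 1115 ± 236 units in females and 1137 ± 287 in males for one and 204.4 ± 75.2 and 207.9 ± 74.1 for the other (adjusted p = 1.00 for each). Their r with the brightest was 0.0092 and 0.027 in females and 0.10 and 0.0078 in males. Psmd1 had 3643, 4537 and 5948 units in females and 2878, 4140 and 5646 in males, and the female mean was 1.13-fold higher (adjusted p = 5.78e-05). Psmd9 had the smallest p of the assembly factors without passing, with means of 812.1 ± 76.3 units in females and 841.6 ± 96 in males (adjusted p = 1.00).

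**Figure D3:**
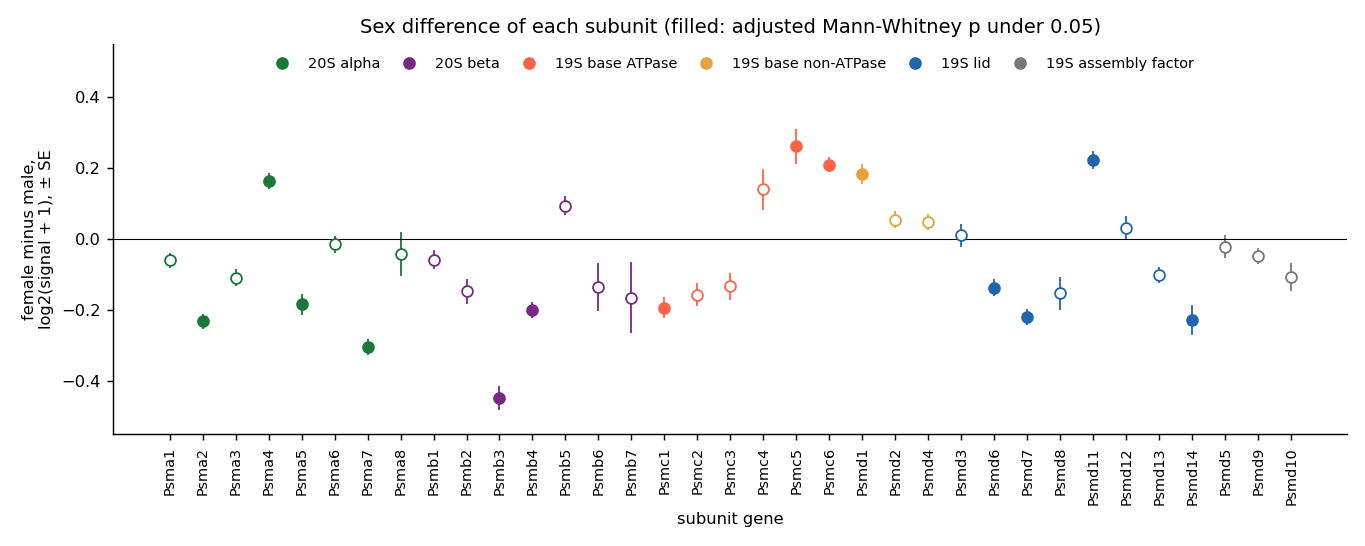
Difference of female minus male mean log2(signal + 1) for each of the 35 subunits with SE bars, coloured by class, from limma; filled points passed the Mann-Whitney test after Bonferroni adjustment. The 9 filled points below 0 and the 5 above it are spread over the alpha, beta, ATPase, base and lid classes, with Psmb3 lowest.

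Because the Gapdh ratio differed between the sexes, the comparison was repeated in limma with both 3′ to 5′ ratios as covariates. Of the members, 3 were then higher in females (Psmc6, Psmd1 and Psmd11) and 5 in males (Psma2, Psma5, Psma7, Psmb3 and Psmd7), against 7.94% and 8.3% of all tested probe sets, and the difference of Psmc1 changed sign to 0.035 log2 units, female minus male, with an adjusted p of 1.00. Without the males numbered 55 to 78, 3 members were higher in females and 11 in males, against 16.6% and 15.8% of all tested probe sets. Without the 11 arrays that stood apart, the 5 and 9 members called were the same ones (16.5% and 16.6% of all). Without the 24 males, Psmd1 and Psmc5 no longer passed; Psmd1 averaged 3336 ± 345 units in those 24 males, 4370 ± 568 in the other 90 and 4679 ± 503 in females. In Psmc4, which was not called, the same 24 males averaged 2490 ± 693 units against 4009 ± 892 in the other 90, and 3980 ± 865 in females.

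Subunits of a complex that is built in fixed proportions were compared for how far they varied together across mice. Over the 595 pairs of members the median Pearson r of log2(signal + 1) was 0.20 in females (quartiles -0.041 and 0.39) and 0.28 in males (0.088 and 0.44). Above 0 were 71.6% of the pairs in females and 80.3% in males. Over all pairs of the 10214 genes the median r was 0.0015 and 0.0035. Taking a line on the number out of each gene left medians of 0.18 and 0.27. All values of a mouse come from 1 array, so that differences between arrays enter every pair.

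Within classes, the median r of the alpha subunits was 0.24 in females and 0.55 in males over 28 pairs, and in males it was 0.50 without those numbered 55 to 78. The beta subunits had 0.26 in each sex over 21 pairs, the ATPases 0.36 and 0.30 over 15, and the lid subunits 0.34 and 0.31 over 28. Between alpha and beta subunits it was 0.18 and 0.35. The assembly factors had 0.017 and -0.28 over 3 pairs. Without the 11 arrays that stood apart, the alpha subunits had 0.28 and 0.57, the beta subunits 0.19 and 0.29, the ATPases 0.46 and 0.28, the lid subunits 0.34 and 0.32 and the assembly factors 0.027 and -0.044. The difference between the sexes in these medians was not tested.

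The closest pair in both sexes was Psmc3 and Psmc5, ATPases of the same ring, with r of 0.86 in females and 0.84 in males, and of 0.80 and 0.79 with the line on the number taken out. These values rested in part on the 11 arrays that stood apart, which were low in both genes. Without them r was 0.76 in each sex, and 0.64 in females and 0.68 in males with the line taken out, and the closest pairs were Psmb7 with Psmd14 in females and Psma6 with Psmb3 in males, both at 0.79. Over all 595 pairs the medians without these arrays were 0.24 and 0.30. With all arrays, Psmb7 and Psmd14 followed in females at 0.81, and Psma6 and Psmb3 in males at 0.79. The lowest pair was Psmb7 with Psmd10 in females, at -0.61, and Psmb3 with Psmd8 in males, at -0.64. Against the other members, Psmd14 had the highest median r in females (0.42) and Psmb4 in males (0.46), and Psma5 had the lowest in females (-0.094) and Psmd10 in males (0.012). Among the catalytic subunits, Psmb5 and Psmb6 correlated at 0.14 in females and 0.36 in males, Psmb5 and Psmb7 at 0.39 and 0.19, and Psmb6 and Psmb7 at 0.42 and 0.21.

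**Figure D4:**
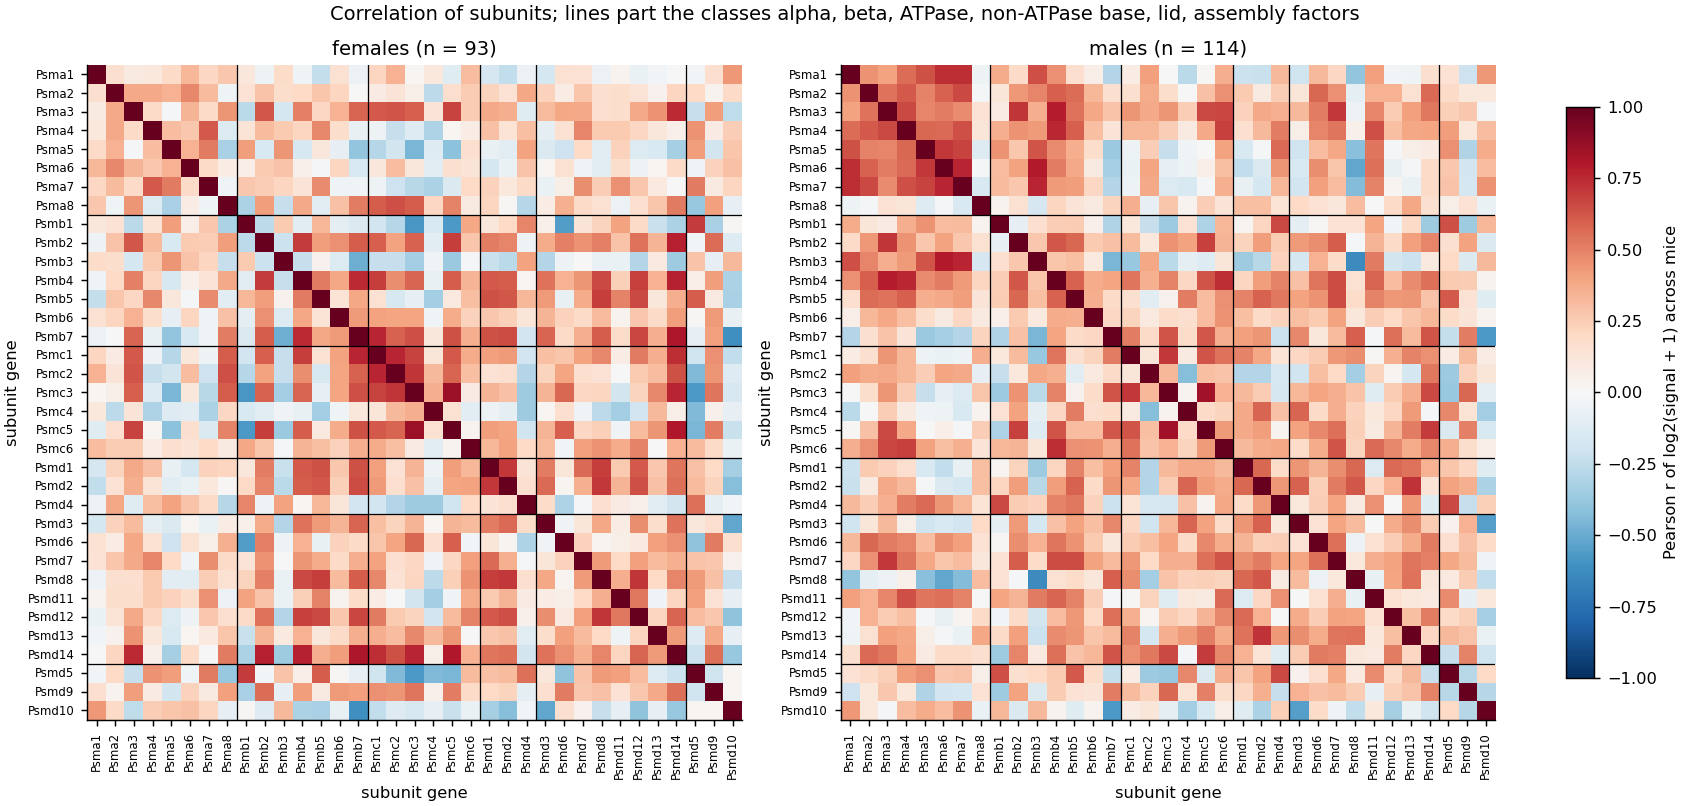
Pearson r of log2(signal + 1) across mice for every pair of the 35 subunits, in 93 females (left) and in males (right), on a colour scale from -1 to 1; lines part the classes. In males the alpha subunits form a block with a median r of 0.55 that in females has 0.24, and Psmd10 has negative r with Psmb7 in both.

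Several genes had more than 1 probe set, and these did not always give the same answer. Besides the brightest, 24 further probe sets of 16 members were tested. Their median r with the brightest of the same gene was 0.16 in females and 0.17 in males, and 0.31 and 0.37 for the 14 that averaged at least 1000 units. For these 14, the sex call was the same in 4, was made only for the brightest in 5, only for the other in 3 and for neither in 2, and 0 went in opposite directions. In females the trend call was the same in 0, only for the brightest in 2, only for the other in 1 and for neither in 11. The trend call in males was the same in 1, only for the brightest in 2, only for the other in 3 and for neither in 8. The probe sets of Psma6 were closest (r = 0.74 in females and 0.90 in males), yet the other one was 1.18-fold higher in males (adjusted p = 4.29e-07) where the brightest was not called (adjusted p = 1.00).

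The probe sets of Psmb4, Psmb3, Psmc4 and Psmd6 were picked for description after their values were seen. The other probe set of Psmb4 was 1.34-fold higher in males (adjusted p = 2.48e-18), but it correlated with the brightest at -0.18 in females and 0.30 in males. The other probe set of Psmb3 had a male mean 1.10-fold higher (adjusted p = 0.134) and a slope in males of 0.0077 (adjusted p = 1.00), so that neither call of Psmb3 was made with it. Psmc4 was 1.20-fold higher in males with its other probe set (adjusted p = 9.47e-19), where its brightest had the higher mean in females (1.08-fold, adjusted p = 1.00). That order rested on the 24 males numbered 55 to 78, without which the male mean was the higher (4009 ± 892 against 3980 ± 865 units).

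The plainest disagreement was in Psmd6, a lid subunit. Its brightest probe set was 5809 ± 602 units in females and 6393 ± 746 in males, without a break. The signals of the other fell into 2 separate runs in each sex. In females 23 of 93 mice (24.7%, Wilson 95% interval 17.1 to 34.4%) had 122.5 to 593.9 units and the other 70 had 1701 to 4938. In males 30 mice (26.3%, 19.1 to 35.1%) had 142.3 to 1164 units and the other 84 had 2778 to 7444. On the brightest probe set the same low and high mice averaged 5590 ± 703 and 5881 ± 552 units in females and 6522 ± 852 and 6347 ± 704 in males. The ranges of these overlapped almost entirely. Genotypes were not set beside these signals, because the mouse codes of the genotype table name no array.

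**Figure D5:**
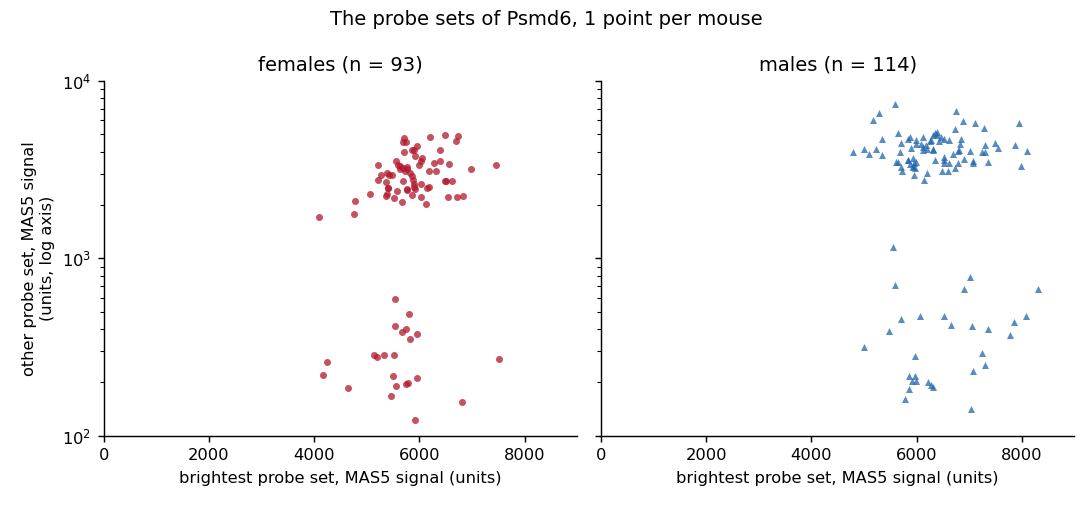
Signal of the 2 probe sets of Psmd6 in MAS5 units, the other one (log axis) against the brightest (linear axis), 1 point per mouse, in 93 females (left) and in males (right). On the other probe set 23 females lie at or below 593.9 units and 70 at or above 1701, and 30 males at or below 1164 and 84 at or above 2778, while on the brightest both runs cover the same range.

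Other genes of the pathway were taken from a list of 36, of which 29 were measured. Higher signals were called in females for 8 and in males for 5, where 16.6% of all tested probe sets were called in each direction. Of the 29, 1 rose and 5 fell with the number in females (16.4% and 14.2% of all), and 3 rose and 5 fell in males (18.1% and 16.2%). The smallest p between the sexes was that of Uba6, which activates ubiquitin, 1.67-fold higher in females (1649 ± 254 against 989.2 ± 128 units, adjusted p = 8.88e-30). Next came Psmf1, an inhibitor of the core, 1.31-fold higher in males (adjusted p = 4.22e-20), and the shuttle proteins Ubqln1 and Ubqln2, 1.17- and 1.29-fold higher in females (adjusted p = 1.38e-17 and 9.39e-13). Of the inducible subunits, Psmb9 was 1.26-fold higher in females (adjusted p = 9.22e-05), and neither Psmb8 nor Psmb10 passed (1.06- and 1.04-fold higher female means, adjusted p = 1.00 for each).

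With the number, Nfe2l1, the gene of NRF1, fell most of the list. Its slope was -0.12 ± 0.012 log2 units per 10 numbers in females (adjusted p = 1.27e-12) and -0.097 ± 0.00913 in males (adjusted p = 2.32e-14). The unfoldase gene Vcp fell at -0.055 ± 0.00754 and -0.051 ± 0.0045 (adjusted p = 2.50e-06 and 2.89e-16), and the ubiquitin-removing enzymes Uchl5 and Usp14 fell in both sexes, with slopes of -0.078 and -0.056 in females and -0.04 and -0.043 in males (adjusted p = 4.86e-05 or less). Ubqln1 rose in males at 0.03 ± 0.00305 (adjusted p = 1.76e-12). Psmb8, Psmb9 and Psmb10 passed in neither sex (adjusted p = 0.306 or more).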

How the data were processed

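Signal intensity was measured in bone marrow macrophages of 207 F2 mice with 1 array each. The authors made the deposited signal intensities with MicroArray Suite 5.0, scaling arrays by their whole chip. The values are on a linear scale and were used as deposited. Replicates are mice, and the main tests took them as independent of each other. Arrays with neighbouring numbers could be shifted together, as those of the males numbered 55 to 78 were. The p-values therefore rest on the spread between mice together with any shift shared by a run, and may be too small. By how much was not tested. The members and lists, the males numbered 55 to 78 and the tests were chosen with earlier results of these data known.

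Probe sets whose 67th percentile of signal reached 100 units were tested (20036 of 45037, with 64 control probe sets set aside). Symbols came from the platform annotation (35890 probe sets, 34958 with 1 symbol). Female and male signals were set against each other by a 2-sided Mann-Whitney test (scipy 1.17.1, normal approximation, corrected for ties and continuity), and slopes on the number with limma 3.58.1 in R 4.3.3 on log2(signal + 1), each with Bonferroni adjustment at 0.05 over all tested probe sets. Correlations are descriptions without a p. Both steps were tested on simulated data.

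Every member was named. Values were given in full for the catalytic subunits, for each class's member with the smallest Mann-Whitney p and with the largest slope in each sex, for the members with the highest and lowest median correlation, and for the 3 with the largest coefficient of variation; Psmc2 and the probe sets of Psmd6, Psmb4, Psmb3 and Psmc4 were added after their values were seen. So were the other probe sets of Psma1, Psma7, Psmd4, Psmd11 and Psmd13. Of the other pathway genes, up to 4 with the smallest p in each test were named, and the inducible subunits. Alternatives were 2 other scalings, signal minimums of 0 and 200 units, another probe set, limma or Spearman correlation, 3′ to 5′ ratios or the number as covariates, a pseudocount of 16, Benjamini-Hochberg adjustment and leaving out the males numbered 55 to 78, and, chosen after seeing the data, leaving out the 11 arrays that stood apart and taking the shared number as a block. The genotype table was not used. The number of arrays limits the precision.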

Additional observations from a re-analysis of the deposited data

Results flagged for a closer look

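The slope of Psmc2 on the number in the sample name differed between the sexes by 0.053 log2 units per 10 numbers, male minus female (limma interaction term, Bonferroni-adjusted p = 0.00711). It fell in females (-0.056 ± 0.0075, n = 93), while the slope in males was -0.0033 ± 0.00636. In the 24 males numbered 55 to 78 its mean was 7731 ± 847 units, against 6225 ± 819 in the other 90, and without those mice its difference of slopes was 0.051 ± 0.00909 (adjusted p = 0.00116).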

How the results depend on the processing

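Females and males share 89 of the numbers, but nothing in the labels ties the mice of a number together. The deviations of same-numbered mice from their sex's mean correlated at a median of 0.18 (-0.17 to 0.59), above 0.1 in 58 of 89, and 4 females were closest to the male of their own number. The number was also taken as a replicate block (limma, chosen after seeing the data). Only the mice of the 89 shared numbers entered, so that the set of mice changed too. Every male numbered below 33 was left out. Then 6 members were higher in females and 11 in males, against 15.3% and 16.2% of all tested probe sets. Psma1, Psmc2, Psmd2 and Psmd10 were added and Psmd14 lost (adjusted p = 0.547). Of the counts and median correlations recomputed under the alternatives, 70 stayed within 1.5 times the count or 0.05 of the correlation and 21 did not. Under Benjamini-Hochberg adjustment, 19 members were higher in males, 5 rose and 19 fell in females, 9 rose and 15 fell in males, and 7 differed in slope. That adjustment called 32.7% of all tested probe sets higher in females and 33% in males, 33.9% rising and 30.4% falling in females, and 34.9% and 32.1% in males. With the 3′ to 5′ ratios as covariates, 3 members were higher in females and 5 in males, 1 rose in females, and 2 rose and 2 fell in males. Quantile normalization gave 1 member rising in females, 2 with a difference of slopes and a median correlation of 0.22 in males. Scaling to the same median gave correlations of 0.26 in females and 0.36 in males. With probe sets that carry no s, x or a suffix, 1 member rose in females, 0 differed in slope, and the median correlations were 0.14 and 0.20. For the 2 other scalings and for these probe sets, no share of all tested probe sets and no median over all gene pairs is given. These counts and correlations are therefore not set against a background. Without the males numbered 55 to 78, 3 members were higher in females. Leaving out the 11 arrays that stood apart, also chosen after seeing the data, moved no count by over 1.5 times. For single members, the sex difference of Psmc6 changed sign to -0.024 with the unsuffixed probe set and that of Psmc1 to 0.035 with the ratios. The cause was not tested. Signals near the minimum, as in Psma8, limit what the array can show.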
